A study of Homo sapiens with 6 samples.

Results

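Interferon-stimulated antiviral genes were followed as a set of 40 named members in human thyroid cells kept in decabromodiphenyl ether (BDE209). The members were taken by gene symbol from a list that was chosen with earlier results of these data known. All 40 were found among the 16574 genes analysed. The cells were Nthy-ori 3-1, an established line from normal thyroid follicular epithelium, of wild-type genotype per the labels, immortalised with the SV40 large T antigen. The 3 BDE209 libraries came from cells kept in 2.5 µM BDE209, a fully brominated flame retardant, for 27 days. The 3 DMSO libraries came from cells kept for the same 27 days in an equal volume of the solvent dimethyl sulfoxide. Nothing in the labels tells whether replicates came from separate cultures, and the p-values therefore describe the spread of these libraries alone, which may be technical. The series title concerns BDE209, thyroid tumour growth and the thyroid hormone receptor beta, and names no interferon gene.

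Type I and type III interferons act through cell-surface receptors and Janus kinases on transcription factors that include STAT2, which with IRF9 belongs to the complex ISGF3. That complex binds the interferon-stimulated response element in the promoters of its target genes. The targets encode proteins that sense foreign RNA, destroy it, block its translation, modify proteins with ISG15 or hold virus particles at the membrane. Many cell types make some of these proteins at a low level without infection.

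Levels are the deposited FPKM, a fragment count scaled by transcript length and library size. A log2 difference is the mean of log2(FPKM + 1) in BDE209 less that in DMSO, and for lowly expressed genes it is smaller than the change itself. A pair is the BDE209 and the DMSO library of the same replicate number. Values listed for a group stand in the order of replicates 1, 2 and 3. The FPKM of a library summed to 567810 to 829739 in BDE209 and to 580098 to 819086 in DMSO, and 14630 to 14914 genes per library were above 0. Both replicate 2 libraries stood apart from the other 4, lying below all of them in 42.6% and above all of them in 29.8% of the 11223 tested genes. Of 7 thyroid follicular markers, 6 were under 1 FPKM in every library, TG, TSHR and PAX8 among them. The exception was FOXE1, at 1.40, 0.84 and 1.48 FPKM in BDE209 and 1.20, 0.98 and 1.24 FPKM in DMSO. Of 6 immune cell markers, 5 were under 1 FPKM in every library, PTPRC at 0.02 or less. The sixth, CD68, read 49.29, 67.67 and 48.18 FPKM in BDE209 and 65.66, 73.63 and 58.03 FPKM in DMSO. All 4 endothelial markers were under 1 FPKM.

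The members stood higher in BDE209 than in DMSO across most of the set. Their FPKM summed to 565, 576 and 577 in the BDE209 libraries, against 451, 432 and 439 in the DMSO libraries, so the sums did not overlap. The most abundant members, LGALS3BP, IFI6, IFI44 and ISG15, weigh most in these sums. As a share of each library's total the sums were 0.0963%, 0.0695% and 0.102% in BDE209, against 0.0755%, 0.0527% and 0.0756% in DMSO. These shares overlap between replicates but were higher in BDE209 in each pair. Of the 40 members, 33 were higher in BDE209 in all 3 pairs, against 18.1% of all genes listed, and 0 were lower in all 3. Any difference above 0 counts as higher here, even 0.12 against 0.11 FPKM for TRIM22 in pair 2. In 10 of the 40 the 3 BDE209 values all lay above the 3 DMSO values, against 3.25% of all genes listed. Of these 10, 4 were of very low level (OAS1, IFI44L, EPSTI1 and RSAD2), with DMSO values of 0.04 to 0.26 FPKM. In RNA from whole cultures, a change in the share of responding cells cannot be told apart from a change in each cell.

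A filter kept the 31 members that reached 1 FPKM in at least 3 libraries, and none of these was under 1 FPKM in all DMSO libraries. The median log2 difference was 0.28 over the 31 tested members and 0.01 over all tested genes. It was 0.22, 0.29 and 0.24 in pairs 1, 2 and 3, against 0.01, 0.02 and 0.00 over all tested genes. Higher values in all 3 pairs were found in 25 of the 31, against a background of 21.9%, and 6 of the 31 had groups that did not overlap, against 3.22%. None was lower in all 3 pairs, against 17.3%. Only OASL had a negative log2 difference among the 31, while 53.4% of all tested genes had a positive one.

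**Figure D1:**
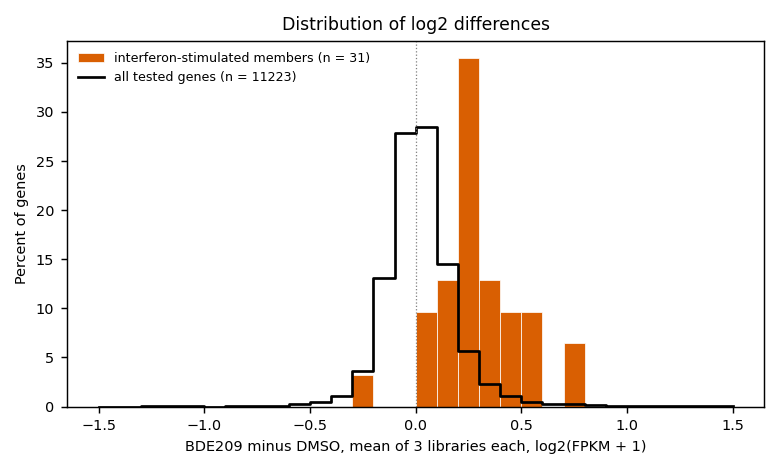
Percent of genes (vertical axis) by log2 difference of BDE209 from DMSO (horizontal axis, steps of 0.1); bars are the 31 tested members and the line is all 11223 tested genes. The members centre on 0.28 and all genes on 0.01, and OASL is the 1 member below 0.

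No single member passed the test across all 6 libraries. Limma called 0 of the 31 members and 0 of the 11223 genes (0%) at an adjusted p under 0.05, and the adjusted p was 1.00 for every tested member. At an unadjusted p under 0.05, 3 members were higher, IFI6, MX1 and IFIT3, against a background of 1.12%, and 0 were lower, against 0.446%. With the replicate number as a block, limma again called 0 members and 0 genes (0%). With that block 22 of the 31 members were higher at an unadjusted p under 0.05, against 9.73% of tested genes, and 0 were lower, against 6.73%. The smallest adjusted p of a member with the block was 0.149, for IFI6. In replicates 1 and 3 alone, limma called 8 of 30 tested members as higher, against a background of 4.4%, and 0 as lower, against 2.28%. Those 8 were IFI6, MX1, MX2, OAS2, OAS3, PARP14, LGALS3BP and XAF1.

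**Figure D2:**
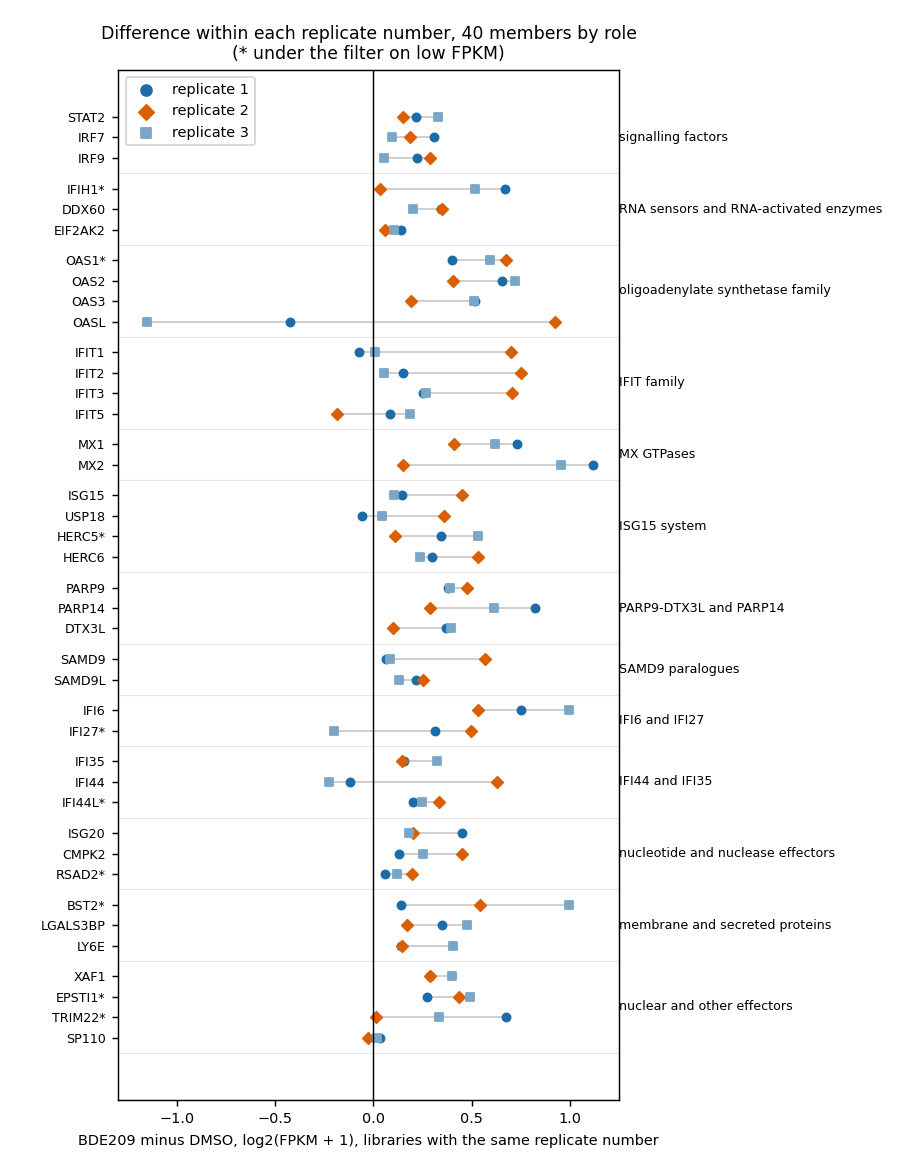
Difference between the BDE209 and the DMSO library of each replicate number (horizontal axis, log2(FPKM + 1) units) for the 40 members, grouped by role; markers show replicates 1, 2 and 3, and a star marks the 9 members under the filter. In 33 members all 3 markers lie right of 0; OASL has the widest spread, at -0.43, 0.92 and -1.15.

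Most members with a promoter entry held the element that ISGF3 binds. The list is of known interferon targets, so this describes the genes chosen and is not a result of these libraries. The interferon-stimulated response element core was searched as GAAA, any 2 bases and GAAA again, on both strands, in RefSeq promoter windows of GRCh38.p14 that run from 250 bases before to 50 after a start site. Of the 40 members, 32 had an entry, and 23 of these (71.9%) held the core in at least 1 window, against 4.38% of the 27305 genes in the table and 3.57% of its 35116 windows. Matches can overlap each other. At least 2 matches in 1 window were found in 12 of the 32 members, against 0.259% of all windows, a share per window and not per gene. The gamma-activated site core, searched as TTC and GAA with any 3 bases between, a palindrome known from genes that respond to interferon gamma, was found in 10 of the 32 members (31.2%), against 9.38% of all genes. The 2 motifs share the letters GAA and can overlap.

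Stretches before the start sites of 8 members are shown because they hold the element in differing number and spacing, with the matches to the element core or its reverse complement in capitals. IFI6 has 3 matches and ISG15 a pair that overlap, while PARP14 and LGALS3BP have 1 each. OAS3, IFIT1 and IFIT3 have a pair each. The IFIT3 stretch belongs to the second of its start sites. Each reads along the gene's own strand.
IFI6, chr1:27672193-27672392, minus strand, bases -200 to -1: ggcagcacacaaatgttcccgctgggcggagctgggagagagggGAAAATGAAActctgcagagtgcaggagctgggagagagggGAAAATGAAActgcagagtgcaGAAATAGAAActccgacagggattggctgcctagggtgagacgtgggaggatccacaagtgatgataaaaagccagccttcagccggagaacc
ISG15, chr1:1013337-1013496, plus strand, bases -160 to -1: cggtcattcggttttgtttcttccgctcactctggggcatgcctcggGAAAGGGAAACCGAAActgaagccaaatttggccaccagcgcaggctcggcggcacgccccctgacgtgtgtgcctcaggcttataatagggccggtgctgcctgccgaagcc
OAS3, chr12:112938274-112938473, plus strand, bases -200 to -1: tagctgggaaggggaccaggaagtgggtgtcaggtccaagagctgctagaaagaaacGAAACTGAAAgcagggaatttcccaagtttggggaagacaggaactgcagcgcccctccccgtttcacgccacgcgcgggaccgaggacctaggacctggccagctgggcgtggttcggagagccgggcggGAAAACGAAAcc
PARP14, chr3:122680719-122680838, plus strand, bases -120 to -1: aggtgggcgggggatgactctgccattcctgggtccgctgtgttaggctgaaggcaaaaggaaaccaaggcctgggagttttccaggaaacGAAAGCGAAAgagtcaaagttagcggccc
LGALS3BP, chr17:78979924-78980043, minus strand, bases -120 to -1: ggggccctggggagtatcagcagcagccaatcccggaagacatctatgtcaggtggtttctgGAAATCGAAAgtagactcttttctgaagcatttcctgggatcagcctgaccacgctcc
IFIT1, chr10:89392463-89392622, plus strand, bases -160 to -1: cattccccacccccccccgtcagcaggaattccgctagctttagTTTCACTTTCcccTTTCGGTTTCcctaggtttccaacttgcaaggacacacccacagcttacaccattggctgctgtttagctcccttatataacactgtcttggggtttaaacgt
IFIT3, chr10:89332369-89332528, plus strand, bases -160 to -1: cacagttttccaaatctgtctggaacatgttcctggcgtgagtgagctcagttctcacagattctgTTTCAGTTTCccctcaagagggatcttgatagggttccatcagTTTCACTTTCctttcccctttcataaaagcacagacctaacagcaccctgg
DTX3L, chr3:122564218-122564347, plus strand, bases -120 to 10: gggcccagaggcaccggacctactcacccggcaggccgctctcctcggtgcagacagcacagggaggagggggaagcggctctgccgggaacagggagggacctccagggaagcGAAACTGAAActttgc

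The DTX3L match spans its start site and is the same stretch of DNA as the PARP9 match, since the windows of these divergent genes share 137 bases. The divergent genes CMPK2 and RSAD2 also have windows that overlap, with no match in the shared bases. Of the 23 members that hold the element, 19 were higher in all 3 pairs, with a median log2 difference of 0.30. Of the 9 with an entry and no match (IFI35, OAS1, STAT2, IRF9, XAF1, HERC6, SAMD9L, CMPK2 and SP110), 8 were higher in all 3 pairs, with a median of 0.23. Both groups of members thus held mostly genes higher in BDE209, and the difference between them was not tested. IFIT2, MX2, OAS2, OASL, IRF7, USP18, TRIM22 and LY6E had no entry.

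**Figure D3:**
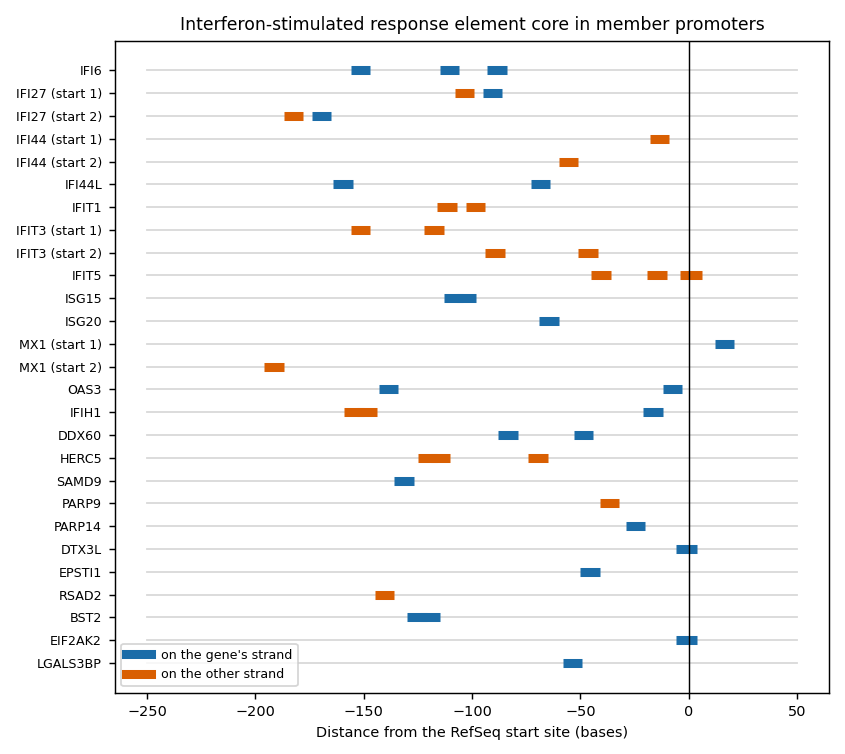
Positions of the interferon-stimulated response element core (bars) from 250 bases before to 50 after the RefSeq start site (horizontal axis, bases) for the 23 members that hold it; blue is the gene's strand, orange the other. Windows with no match are not drawn, and start 1 and 2 number a gene's drawn windows, some of which overlap and show the same match from another start.

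Of the signalling factors, STAT2, a subunit of ISGF3, read 12.26, 6.03 and 14.16 FPKM in BDE209, against 10.43, 5.34 and 11.08 FPKM in DMSO. It was higher in each pair, while both replicate 2 libraries lay far below the other 4, so the groups overlapped. The difference came to 0.23 (SE 0.373; block adjusted p 0.228). Here and for the other genes the SE is that of the limma fit without the block, while the block adjusted p comes from the fit with it, whose SE was 0.0652 for STAT2. IRF9, the DNA-binding part of ISGF3, read 31.61, 35.62 and 29.88 FPKM in BDE209, against 26.92, 28.98 and 28.75 FPKM in DMSO. All BDE209 values lay above all DMSO values, the nearest by under 1 FPKM, with a difference of 0.19 (SE 0.122; block adjusted p 0.255). IRF7, which drives the interferon alpha genes, read 8.31, 8.12 and 8.84 FPKM in BDE209, against 6.51, 7.02 and 8.21 FPKM in DMSO. It was higher in each pair and the groups overlapped only at the DMSO replicate 3 value, with a difference of 0.20 (SE 0.124; block adjusted p 0.262).

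The RNA sensors and RNA-activated enzymes were higher in all 3 pairs in each of 3 members, with log2 differences of 0.10 to 0.41. IFIH1, the cytosolic sensor MDA5, lay under the filter. It read 1.61, 0.31 and 1.66 FPKM in BDE209, against 0.64, 0.28 and 0.86 FPKM in DMSO. It was higher by little in the replicate 2 pair and by more in the other 2 pairs. DDX60, a helicase that aids such sensors, ranged from 1.82 to 2.77 FPKM in BDE209, against 1.21 to 2.04 FPKM in DMSO. EIF2AK2, the kinase PKR that halts translation on double-stranded RNA, had a small difference, 0.10, with 4.78 to 8.10 FPKM in BDE209, against 4.55 to 7.25 FPKM in DMSO.

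The OAS enzymes make oligoadenylates when they meet double-stranded RNA. OAS2 read 4.54, 1.97 and 4.80 FPKM in BDE209, against 2.52, 1.24 and 2.52 FPKM in DMSO, a 1.80-fold ratio of means and a log2 difference of 0.59 (SE 0.319; block adjusted p 0.204). OAS3 read 12.78, 6.05 and 13.57 FPKM in BDE209, against 8.64, 5.17 and 9.23 FPKM in DMSO, with a difference of 0.41 (SE 0.338; block adjusted p 0.204). Both genes were higher in each pair, and in both the BDE209 replicate 2 value lay within the DMSO range. OAS1, under the filter, read 0.49, 1.01 and 0.72 FPKM in BDE209, against 0.13, 0.26 and 0.14 FPKM in DMSO, a 4.19-fold ratio of means at low levels. Its groups did not overlap (two-sided exact permutation test, p 0.1, the lowest value 3 libraries against 3 can give).

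OASL, a relative of the OAS enzymes that does not make oligoadenylates in humans, went apart from its family. It read 0.86, 6.51 and 0.61 FPKM in BDE209, against 1.50, 2.96 and 2.58 FPKM in DMSO. BDE209 replicate 2 held the highest value of all 6 libraries and the other BDE209 libraries the lowest, so the groups overlapped. The pair differences were -0.43, 0.92 and -1.15, the log2 difference was -0.22 (SE 0.594; block adjusted p 0.814), and the ratio of mean FPKM was 1.13.

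The IFIT proteins bind foreign RNA and block its translation. IFIT3 read 8.12, 11.58 and 7.85 FPKM in BDE209, against 6.66, 6.70 and 6.35 FPKM in DMSO. The DMSO libraries were nearly level and all BDE209 libraries lay above them, replicate 2 by the most, with a difference of 0.41 (SE 0.163; unadjusted p 0.044 by limma, block adjusted p 0.222). IFIT2 read 1.64, 2.25 and 1.64 FPKM in BDE209, against 1.38, 0.93 and 1.54 FPKM in DMSO. Its groups did not overlap either, and the difference was 0.32 (SE 0.163; block adjusted p 0.349). IFIT1 read 1.97, 4.41 and 2.31 FPKM in BDE209, against 2.13, 2.33 and 2.29 FPKM in DMSO. Only BDE209 replicate 2 stood out, and the difference was 0.21 (SE 0.237; block adjusted p 0.543). IFIT5 read 5.78, 4.68 and 5.86 FPKM in BDE209, against 5.39, 5.47 and 5.02 FPKM in DMSO. It was lower in the replicate 2 pair, unlike the other 3 family members, and its difference was 0.03 (SE 0.127; block adjusted p 0.896).

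MX1 and MX2 are dynamin-like GTPases that trap viral nucleocapsids. MX1 read 3.08, 2.18 and 2.41 FPKM in BDE209, against 1.46, 1.39 and 1.22 FPKM in DMSO, a 1.88-fold ratio of means. The groups did not overlap, and the log2 difference was 0.59 (SE 0.141; unadjusted p 0.0049, block adjusted p 0.204, limma). MX2 read 7.85, 3.10 and 7.91 FPKM in BDE209, against 3.07, 2.69 and 3.60 FPKM in DMSO. Its replicate 1 and 3 values in BDE209 lay above every other library, whereas BDE209 replicate 2 lay within the DMSO range, with a difference of 0.74 (SE 0.321; block adjusted p 0.227). In replicates 1 and 3 alone both rose, MX1 by 0.67 (limma adjusted p 0.0243) and MX2 by 1.04 (limma adjusted p 0.00196).

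ISG15 is a ubiquitin-like protein joined to other proteins after interferon. It read 44.80, 106.86 and 42.61 FPKM in BDE209, against 40.35, 77.81 and 39.62 FPKM in DMSO. Both replicate 2 libraries were high, and each BDE209 library exceeded the DMSO library of its number, with a difference of 0.23. USP18, which removes ISG15 and dampens the interferon receptor, read 7.27, 6.78 and 7.58 FPKM in BDE209, against 7.61, 5.07 and 7.33 FPKM in DMSO. Its groups overlapped, with a difference of 0.11 (SE 0.165; block adjusted p 0.564), and reads from the near-identical copy USP41 may be counted in it. HERC6, a relative of the human ISG15 ligase HERC5, read 3.13, 2.39 and 3.09 FPKM in BDE209, against 2.36, 1.34 and 2.47 FPKM in DMSO. It was higher in each pair, by 0.36 in all (SE 0.193; block adjusted p 0.222), and only the replicate 2 value of BDE209 fell within the DMSO range. HERC5 itself, under the filter, ranged from 0.63 to 1.14 FPKM in BDE209, against 0.48 to 0.67 FPKM in DMSO.

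PARP9 and the ubiquitin ligase DTX3L act as a complex, and PARP14 is an ADP-ribosyltransferase that lies near them in the genome. PARP9 read 8.83, 6.47 and 7.26 FPKM in BDE209, against 6.55, 4.36 and 5.30 FPKM in DMSO, with a difference of 0.42 (SE 0.177; block adjusted p 0.204) that was nearly the same in each pair. PARP14 read 6.28, 1.39 and 5.86 FPKM in BDE209, against 3.12, 0.96 and 3.48 FPKM in DMSO. Replicate 2 was low in both groups, and PARP14 was higher in each pair, with a difference of 0.57 (SE 0.523; block adjusted p 0.204) that ranged from 0.20 without DMSO replicate 2 to 1.10 without BDE209 replicate 2. DTX3L, which shares its promoter with PARP9, ranged from 1.91 to 6.03 FPKM in BDE209, against 1.72 to 4.45 FPKM in DMSO, with a difference of 0.29. In replicates 1 and 3 alone PARP14 differed by 0.72, PARP9 by 0.39 and DTX3L by 0.38. Of these 3 genes only PARP14 was called there (limma adjusted p 0.00731, against 0.0545 for DTX3L and 0.127 for PARP9). The differences between the 3 were not tested.

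**Figure D4:**
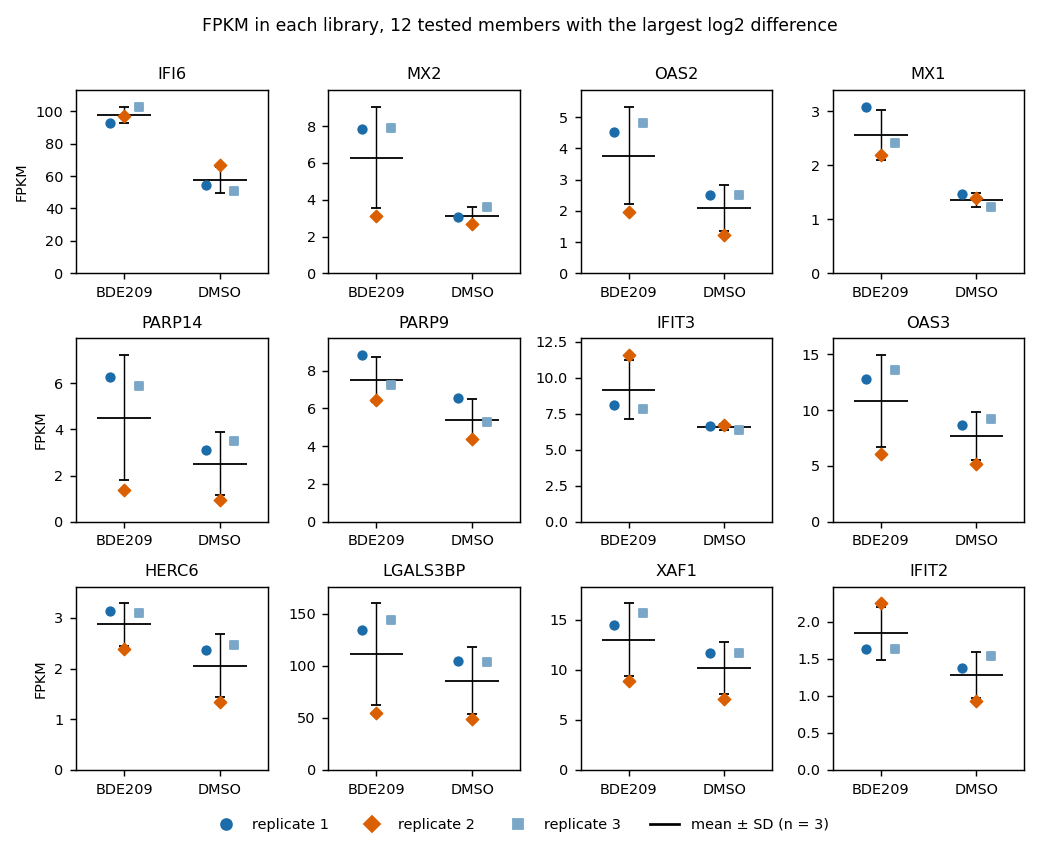
FPKM (vertical axis, from 0) in each library for the 12 tested members with the largest log2 difference, BDE209 left and DMSO right; markers are replicates 1, 2 and 3, lines the mean and bars the SD (n = 3). The groups do not overlap for IFI6, MX1, IFIT3 and IFIT2, and MX2 is high only in BDE209 replicates 1 and 3.

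IFI6, a small membrane protein that restrains apoptosis and flavivirus replication, had the largest log2 difference of the tested members. It read 92.87, 97.00 and 102.68 FPKM in BDE209, against 54.76, 66.67 and 50.91 FPKM in DMSO. The groups lay well apart, at 97.5 ± 4.93 FPKM in BDE209 and 57.4 ± 8.22 FPKM in DMSO (SD, n = 3), a 1.70-fold ratio of means. The log2 difference was 0.76 (SE 0.152; unadjusted p 0.0019, adjusted p 1.00 and block adjusted p 0.149, limma). Its relative IFI27, under the filter, did not share this: it read 1.44, 1.09 and 0.62 FPKM in BDE209, against 0.96, 0.48 and 0.86 FPKM in DMSO.

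IFI44 and IFI44L are neighbouring paralogues of little-known function, and IFI35 partners the protein NMI. IFI44 was abundant, at 45.64, 99.40 and 38.47 FPKM in BDE209, against 49.69, 63.92 and 45.14 FPKM in DMSO. It was higher only in the replicate 2 pair, and the difference was 0.09 (SE 0.367; block adjusted p 0.809). IFI44L was low, at 0.24, 0.31 and 0.26 FPKM in BDE209, against 0.08, 0.04 and 0.06 FPKM in DMSO. Its groups did not overlap (two-sided exact permutation test, p 0.1, the lowest possible). IFI35 read 29.30, 28.31 and 31.24 FPKM in BDE209, against 26.18, 25.54 and 24.74 FPKM in DMSO, also without overlap.

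Of the effectors that act on nucleotides and RNA, CMPK2, a mitochondrial nucleotide kinase, ranged from 1.43 to 2.45 FPKM in BDE209, against 1.04 to 1.52 FPKM in DMSO. RSAD2, or viperin, which makes a chain-terminating nucleotide, was under the filter at 0.25, 0.33 and 0.27 FPKM in BDE209, against 0.20, 0.16 and 0.17 FPKM in DMSO. The groups of RSAD2 did not overlap. ISG20, an exonuclease, ranged from 3.19 to 5.66 FPKM in BDE209, against 2.29 to 4.79 FPKM in DMSO, and was higher in each pair.

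SAMD9 and SAMD9L, neighbouring genes for proteins that restrict poxviruses, were also higher in each pair. SAMD9 ranged from 4.87 to 7.13 FPKM in BDE209, against 2.96 to 6.77 FPKM in DMSO, and SAMD9L from 2.96 to 7.17 FPKM in BDE209, against 2.32 to 6.13 FPKM in DMSO. Replicate 2 gave the lowest value of each group in both genes, so the groups overlapped.

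At the membrane and outside the cell, LGALS3BP, a secreted glycoprotein that binds galectins, had the highest mean FPKM of the members in both groups, though not in the replicate 2 libraries. It read 133.97, 54.87 and 144.00 FPKM in BDE209, against 104.97, 48.71 and 103.31 FPKM in DMSO. Replicate 2 was low in both groups, and the difference was 0.33 (SE 0.469; block adjusted p 0.206). LY6E, a lipid-anchored surface protein, ranged from 26.51 to 33.05 FPKM in BDE209, against 21.67 to 29.81 FPKM in DMSO. BST2, or tetherin, which holds budding virus at the membrane, was under the filter at 0.61, 1.48 and 1.47 FPKM in BDE209, against 0.46, 0.70 and 0.24 FPKM in DMSO. Both LY6E and BST2 were higher in each pair with groups that overlapped.

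XAF1, a promoter of apoptosis that antagonises the inhibitor XIAP, read 14.50, 8.91 and 15.66 FPKM in BDE209, against 11.71, 7.13 and 11.63 FPKM in DMSO. It was higher in each pair, with a difference of 0.32 (SE 0.270; block adjusted p 0.204). SP110, a nuclear body protein, was almost level, at 9.43, 8.29 and 8.12 FPKM in BDE209, against 9.18, 8.47 and 8.02 FPKM in DMSO. Its difference was 0.01 (SE 0.117), and with the block the 95% interval ran from -0.14 to 0.15 (block adjusted p 0.958). EPSTI1, named for epithelial-stromal interaction, lay under the filter at 0.33, 0.54 and 0.49 FPKM in BDE209, against 0.10, 0.14 and 0.06 FPKM in DMSO, with no overlap. TRIM22, an antiviral ubiquitin ligase also under the filter, read 0.87, 0.12 and 0.74 FPKM in BDE209, against 0.17, 0.11 and 0.38 FPKM in DMSO. The replicate 2 pair was nearly level.

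The members were spread over both sides of the replicate 2 pair about as all genes were. In 18 of the 40 the replicate 2 difference exceeded those of pairs 1 and 3, in 17 it was below both, and in 5 it lay between. Over all tested genes these shares were 41.6% above and 37.6% below, and for the 31 tested members the counts were 14 and 14. OASL, IFI44, IFIT1, IFIT2, SAMD9, IFIT3, IFI27 and USP18 stood at the upper end, with a replicate 2 difference that exceeded the mean of the others by 1.71, 0.80, 0.73, 0.65, 0.49, 0.45, 0.44 and 0.37. MX2, IFIH1, TRIM22 and PARP14 stood at the lower end, at -0.89, -0.56, -0.49 and -0.43. The neighbours IFIT1 and IFIT5 lay on opposite sides, at 0.73 and -0.32, while the neighbours MX1 and MX2 both lay below 0, at -0.26 and -0.89. The groups of genes at either end were named after their values were seen, and the difference between pairs was not tested.

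**Figure D5:**
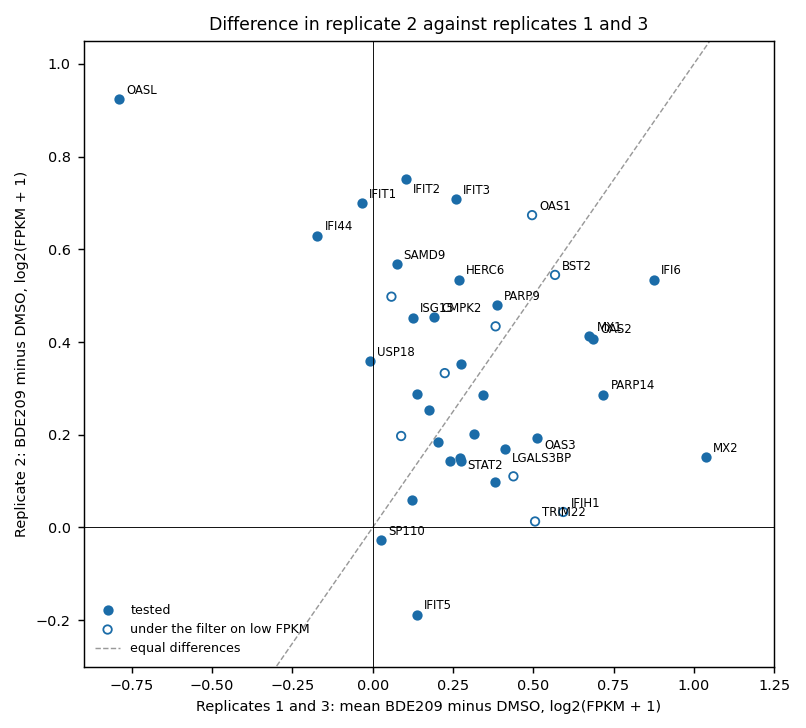
Replicate 2 difference (vertical axis) against the mean difference of replicates 1 and 3 (horizontal axis), both BDE209 minus DMSO in log2(FPKM + 1) units, for the 40 members; open circles are under the filter and the dashed line marks equal differences. OASL, IFI44 and IFIT1 lie high on the left, MX2, PARP14 and IFIH1 below the line on the right.

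The level shift of replicate 2 was seen in the members no more often than in all genes. In 12 of the 31 tested members (38.7%) both replicate 2 libraries lay below the other 4, against 42.6% of tested genes, and in 6 (19.4%) they lay above them (IFI44, IFIT1, ISG15, ISG20, OASL and LY6E), against 29.8%. The part of this shift in the member differences was not tested. Without replicate 2 the log2 differences of IFI44, IFIT1 and USP18 were negative, at -0.17, -0.03 and -0.01.

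Around the members, the pathway was seen through its receptors, kinases, sensors and regulators, and limma called 0 genes of these lists across the 6 libraries. At an unadjusted p under 0.05 it found 1 receptor, 2 sensors or adaptors, 1 regulator and 2 further interferon-stimulated genes higher, and 0 genes of the lists lower. Of 17 interferon genes listed, only IFNA5 was found among the 16574 genes analysed, so the levels of the others cannot be told here. IFNA5 read 0.08 FPKM in DMSO replicate 2 and was listed at 0 in the other 5 libraries. Of 4 tested receptor genes 3 were higher in all 3 pairs. IFNGR1, a chain of the interferon gamma receptor, read 36.62, 30.34 and 33.99 FPKM in BDE209, against 23.09, 26.59 and 21.85 FPKM in DMSO, without overlap, with a difference of 0.48 (SE 0.136; block adjusted p 0.206). Its partner IFNGR2 differed by 0.21 and the type I receptor chain IFNAR1 by 0.08, while IL10RB, shared with interferon lambda, differed by 0.11 and was not higher in the replicate 3 pair.

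Of the Janus kinases, TYK2, a kinase of the type I receptor, was lower in each pair, with a log2 difference of -0.05. The kinases JAK1 and JAK2 differed by 0.10 and -0.06, and the transcription factor STAT3 by 0.10.

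Of 10 tested sensors and adaptors, 8 were higher and 0 lower in all 3 pairs. STING1, the adaptor of CGAS, was lower in pairs 1 and 3 and higher in pair 2, at -0.43, 0.39 and -0.39, and in replicates 1 and 3 alone it fell by 0.41 (limma adjusted p 0.0237). In those replicates RIGI and TRIM25 rose, by 0.55 and 0.51 (limma adjusted p 0.0271 and 0.0119). RIGI, the sensor of uncapped RNA, read 3.21, 2.11 and 3.63 FPKM in BDE209, against 1.89, 1.51 and 2.14 FPKM in DMSO, with a difference of 0.47. IKBKE, a kinase that activates interferon regulatory factors, read 5.38, 5.88 and 5.22 FPKM in BDE209, against 4.07, 4.40 and 4.10 FPKM in DMSO, without overlap. TRIM25, the ligase that activates RIGI, differed by 0.39 and CGAS, the sensor of cytosolic DNA, by 0.16.

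Of 8 tested regulators and enzymes of ISG15 conjugation, 4 were higher and 1 lower in all 3 pairs. UBA7 and UBE2L6, which activate and carry ISG15, differed by 0.64 and 0.61. UBE2L6 read 89.60, 47.66 and 78.95 FPKM in BDE209, against 49.17, 44.18 and 42.57 FPKM in DMSO, so replicate 2 of BDE209 lay near the DMSO libraries. SOCS1, which feeds back on the Janus kinases, differed by 0.41, and the phosphatase PTPN2 by 0.12. Of 28 further interferon-stimulated genes tested, 17 were higher and 0 lower in all 3 pairs, with a median of 0.18. APOBEC3G, a cytidine deaminase, and SHFL, an inhibitor of viral frameshifting, differed by 0.48 and 0.40, both without overlap, while APOL1 and APOL2, lipid-binding apolipoproteins, differed by 0.76 and 0.38.

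The median differences in pairs 1, 2 and 3 were set beside those of related interferon-responsive sets, with no test between sets. They were 0.22, 0.29 and 0.24 for the 31 tested members. They were 0.41, 0.06 and 0.45 for 11 tested genes of MHC class I and peptide loading, HLA-B among them, and 0.74, 0.24 and 0.73 for 4 tested guanylate-binding proteins and IRF1. The 3 IFITM genes had medians of 0.24, 0.18 and 0.05, and IFITM1 differed by 1.13 and was higher in each pair. Of the 6 fibroblast and matrix genes kept as markers, LUM and DCN differed by 1.10 and 0.79 in the same libraries and COL3A1 by -1.06, and the summed level of that list ranged from 1376 to 4044 FPKM in BDE209, against 1427 to 4162 FPKM in DMSO, none of the 6 being under 1 FPKM in every library. Its part in the member differences was not tested.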

How the data were processed

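The authors deposited FPKM for each gene under human Ensembl identifiers, per the file headers. The submitters' processing notes name Bowtie 0.12.2, Bowtie2 and RSEM and the mouse builds mm8 and mm10; a human build, the use of strand and the handling of shared reads: not given in the sources used here. Each file had 16614 rows; 40 rows of 20 repeated identifiers were left out, and 16535 of 16574 genes had a symbol. Depth is not stated: FPKM times length (GENCODE v29) of low genes with 1 transcript peaked at 0.07 to 0.11 per library, the value of 1 fragment if whole fragments were counted. Limma 3.58.1 in R 4.3.3, with trend and robust options, was run on log2(FPKM + 1) of 11223 genes with at least 1 FPKM in 3 or more libraries, with Benjamini-Hochberg adjustment at 0.05 over all of them; SEs are those of this fit, without the block. It was tested on simulated data with 200 changed genes. Pairs were formed by the replicate numbers in the titles. Same-numbered deviations from group means correlated at 0.738, 0.875 and 0.824. With replicate 2 apart in both groups of 3, these values cannot tell whether replicates 1 and 3 are truly paired. What the numbers share is not stated. Members and lists were chosen with earlier results of these data known. Statistics in full were given to the 12 tested members with the largest difference, to those with a pair of the other sign and to STAT2, IRF9 and IRF7; up to 4 genes per pathway list were named by smallest p, and further genes after their values were seen. Alternatives were other pseudocounts, filters, scalings, the block, limma without its options, and leaving out libraries.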

Additional observations from a re-analysis of the deposited data

How the results depend on the processing

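Depth, the 3 libraries per group and the shift of replicate 2 limit these values. The median difference of the tested members was positive in all alternatives, at 0.33 with a pseudocount of 0.1, 0.23 with a minimum of 5 FPKM, 0.31 with libraries scaled to an equal sum and 0.23 with quantile normalization, and at 0.20 to 0.38 when libraries were left out. Members higher in all pairs numbered 15 of 19 with the minimum of 5 FPKM, where fewer genes are tested. Non-overlapping members numbered 10 of 40 without a filter. Without replicate 2, limma called 741 of 11101 genes and 8 of 30 members. The groups did not overlap in 26 members. Groups of 2 libraries separate more easily than groups of 3, and the share over all genes was not computed. Without BDE209 replicate 2 it called 1 gene and 0 members; the other alternatives called 0 of each. The replicate block, with 0 genes and 0 members called, changed no call. Over all left-out libraries the calls ranged from 0 to 741 genes and 0 to 8 members. The non-overlapping members ranged from 6 to 26, again with fewer libraries and no share over all genes. The cause of these ranges was not tested. SP110 was at -0.013 with libraries centred on their median and -0.029 with quantile normalization, and IFIT5 at -0.0061 with quantile normalization. Leaving out libraries gave ranges across 0 for LGALS3BP (-0.029 to 0.77), STAT2 (-0.066 to 0.57), IFI44 (-0.31 to 0.36), IFIT1 (-0.051 to 0.38), IFIT5 (-0.051 to 0.14), OASL (-0.92 to 0.25), USP18 (-0.046 to 0.21) and SP110 (-0.052 to 0.054). Values that kept their sign but moved by over 1.5 times had their lowest value without DMSO replicate 2 for PARP14 (0.20), OAS3 (0.18), OAS2 (0.38), HERC6 (0.17) and XAF1 (0.11), without replicate 2 for IFIT2 (0.10), and without BDE209 replicate 2 for IFIT3 (0.25) and IRF9 (0.12). Without BDE209 replicate 2, MX2 was 1.11, PARP14 1.10, OAS2 0.90, OAS3 0.74 and XAF1 0.56. Without BDE209 replicate 1, PARP14 was 0.29 and OAS3 0.26; without BDE209 replicate 3, PARP14 was 0.34, OAS3 0.22 and XAF1 0.18. With a single library left out, the count over pairs equals that without its pair.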
